A study of Mus musculus with 16 samples.

Results

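The cells left behind by the sorts for blood progenitors were compared at 2 times of mouse embryonic stem cell differentiation. The day 3.5 cells sorted as CD41 negative were set against the day 2.5 cells sorted as VEGF-R2 negative, and the members were chosen by sample title: 2 arrays of each population, 4 of the 16 arrays in the series, and all 45037 probe sets that are not array controls. The cells are CCE, a mouse embryonic stem cell line grown on irradiated fibroblasts with leukemia inhibitory factor (LIF). After separation from the fibroblasts they were cultured without LIF as embryoid bodies, clumps in which early embryonic lineages form. The bodies were dissociated, fixed in ethanol and acetic acid, stained with antibodies and sorted by flow cytometry. VEGF-R2 is the receptor for vascular endothelial growth factor and marks mesoderm that can form blood and vessels. CD41, an integrin subunit, marks the first blood progenitors, and CD144, or VE-cadherin, is the adhesion molecule of vessel lining cells. The labels give both populations only by the marker they lack. Day and sorting marker differ together between them, so their effects cannot be told apart. A rise or fall below is a difference between the 2 populations. For the CD41 negative cells the methods of the study add that they also lacked VEGF-R2. The labels and methods name no genetic change or drug for any group used here, all cells come from 1 line, and the replicates of each population came from separately conducted experiments.

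In the study these negative cells served as controls: a change they shared with the sorted cells was removed from the lists of the sorted cells. Their own change is described here. As background, cells of an early embryoid body pass from a pluripotent state through an epiblast-like state toward the primitive streak, the site where mesoderm and endoderm arise in the embryo. Mesoderm that turns on Etv2 and then Tal1, Lmo2, Gata2 and Fli1 can form blood and vessels, while cells that stay outside this route can remain pluripotent or follow other fates. BMP4, Wnt and Nodal signals drive streak formation, and their targets are often read as a record of the signals received.

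Each value is a linear MAS5 signal, scaled by the authors so that every array has a trimmed mean of 500. For a change, 6.03 (the 10th percentile over the 16 arrays) was added to each signal and the log2 taken. Changes come from limma with all 16 arrays in 1 fit, and a probe set was called at a Benjamini-Hochberg adjusted p under 0.05. Replicates correlated with a Spearman coefficient of 0.955 in both populations, and the arrays of one population correlated with those of the other between 0.938 and 0.943. Some array quality measures differed between the groups. The ratio of the 3′ to the 5′ β-actin control was 1.37 and 1.36 in VEGF-R2 negative and 2.22 and 1.93 in CD41 negative cells. For GAPDH this ratio differed less, at 0.821 and 0.816 in VEGF-R2 negative and 0.849 and 0.832 in CD41 negative cells. The geometric mean of 9 hybridisation controls was 1830 and 1939 in the first and 2464 and 2571 in the second population. On the arrays of positive populations the same controls read 5171 to 9079, and replicates correlated at 0.872 to 0.895. Levels in positive and negative cells are thus compared across arrays that differ in these measures. The part of these differences in the results was not tested.

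Between day 2.5 and day 3.5, 707 probe sets were higher and 853 lower in the negative cells, 3.46% of those tested (1.57% higher and 1.89% lower). Larger changes were more often decreases. Beyond 8-fold, a log2 change of 3, lay 50 called decreases and 5 called increases. Beyond 4-fold lay 144 decreases and 54 increases. Increases were 45.3% of all calls, and 29.8% when each array was centred on its median. The count was much larger, 1715 higher and 1600 lower, when only the 8 arrays of negative populations were fitted. It fell to 159 higher and 215 lower under a robust prior without trend, and to between 182 and 225 higher and 232 and 349 lower when any 1 of the 4 arrays was left out. At an unadjusted p under 0.05 were 5982 probe sets. By genes, each read by its brightest probe set, 5.59% of 18193 were called, 2.49% higher and 3.1% lower. Counts in the gene lists below are to be read against these shares unless others are given. The change differed from that of the CD41 sorted cells in 4.73% of probe sets.

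**Figure D1:**
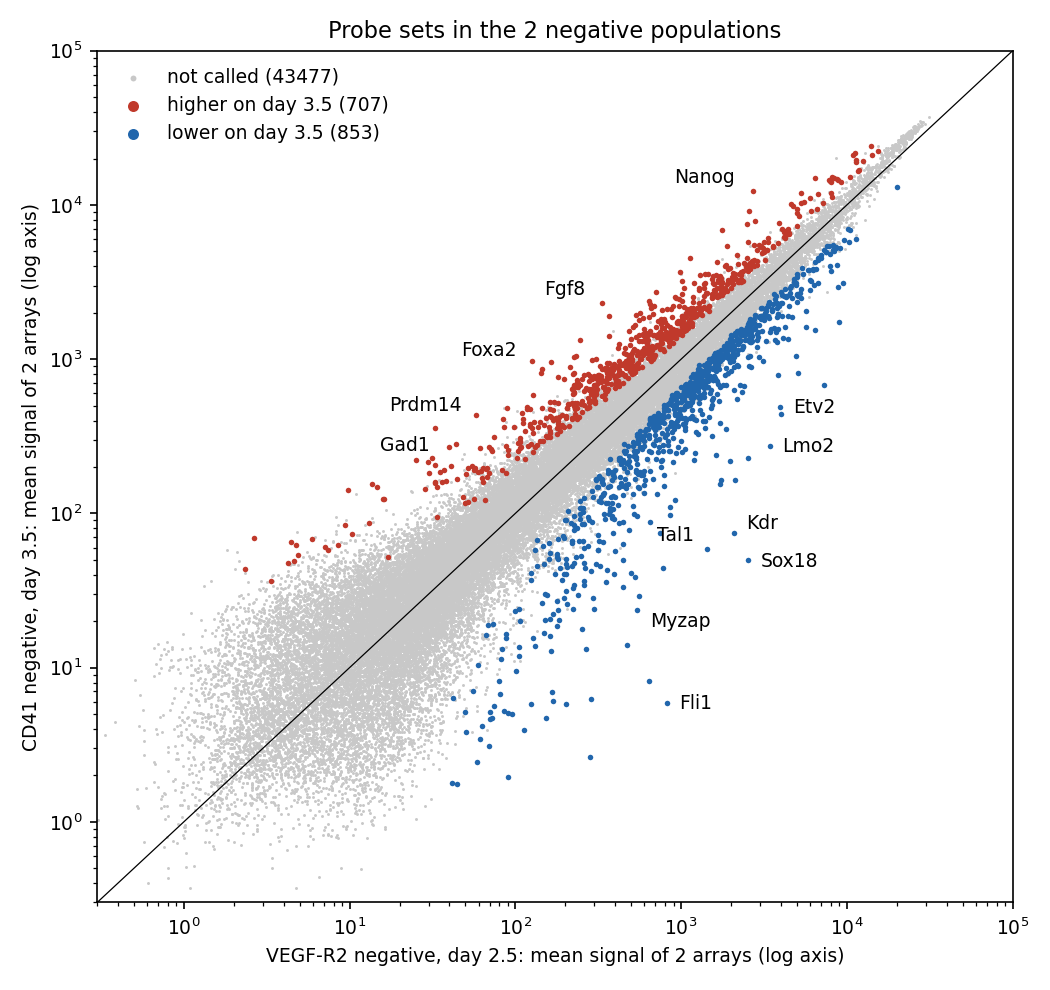
Mean signal of each probe set in the VEGF-R2 negative population of day 2.5 (horizontal) and the CD41 negative population of day 3.5 (vertical), both on log axes, with 707 probe sets called higher in red, 853 called lower in blue and the line of equal signal in black. Fli1, Sox18, Kdr and Tal1 lie far below the line, while Nanog, Fgf8, Foxa2, Prdm14 and Gad1 lie above it.

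The marker genes were read first as a check of the labels. Kdr, which encodes VEGF-R2, had signals of 2088 and 2077 in the population labelled VEGF-R2 negative and 53.5 and 95.1 in CD41 negative cells, and its log2 signal fell by 4.75 (standard error 0.27, adjusted p = 2.9e-08). The day 2.5 level lay far above 85.8, the median of all values, and was between the level in VEGF-R2 positive cells, 5475 and 6297, and that in day 3.5 CD41 negative cells. The VEGF-R2 negative cells were therefore not free of the transcript, while the day 3.5 cells were near or under the median. In RNA from sorted populations, fewer cells of a type and less transcript per cell cannot be told apart. Itga2b, which encodes CD41, read 229 and 189 at day 2.5 and 227 and 195 at day 3.5, with a log2 change of 0.02 (standard error 0.24, adjusted p = 0.996), against 7523 and 5299 in CD41 positive cells. Cdh5, which encodes CD144, fell by 1.89 (standard error 0.35, adjusted p = 0.00458) from 110.2 and 100.1 to 27.7 and 20.6. Its adjusted p was 0.0641 without CD41 negative replicate 2 and 0.0674 without VEGF-R2 negative replicate 1.

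The regulators that open the blood and vessel route fell together. Etv2, the ETS factor that starts the program in mesoderm, dropped from 3913 and 4009 to 540.2 and 446. Its log2 signal fell by 3.0 (standard error 0.18, adjusted p = 6.74e-08). Tal1, the basic helix-loop-helix factor required for all blood, went from 1548 and 1321 to 71.5 and 45.9, and fell by 4.50 (standard error 0.18, adjusted p = 8.88e-10). Its partner Lmo2, a bridging protein of the same complex, fell by 3.62 (standard error 0.20, adjusted p = 2.23e-08), from 3456 and 3418 to 276 and 271. Gata2, a zinc finger factor of blood progenitors, read 673 and 629.6 at day 2.5 and 100.2 and 76.5 at day 3.5, a fall of 2.81 (standard error 0.23, adjusted p = 1.41e-06). Arrays of the 2 populations did not overlap in these 4 genes, but with 2 arrays a group that is also frequent without a change. The share of all genes without overlap is not given here, so the lack of overlap is not used as support. All 4 calls held under every alternative tried.

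Fli1, an ETS factor shared by blood and endothelium, changed most of all named genes. Its signals were 856 and 785 at day 2.5 and 2.44 and 9.39 at day 3.5. The latter lie under 23.4, the 25th percentile of all values, so the size of the change depended on the offset. The log2 signal fell by 6.18 (standard error 0.31, adjusted p = 1.26e-08), with a range of -7.10 to -4.86 over the alternatives. A second probe set of Fli1 was called lower as well.

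**Figure D2:**
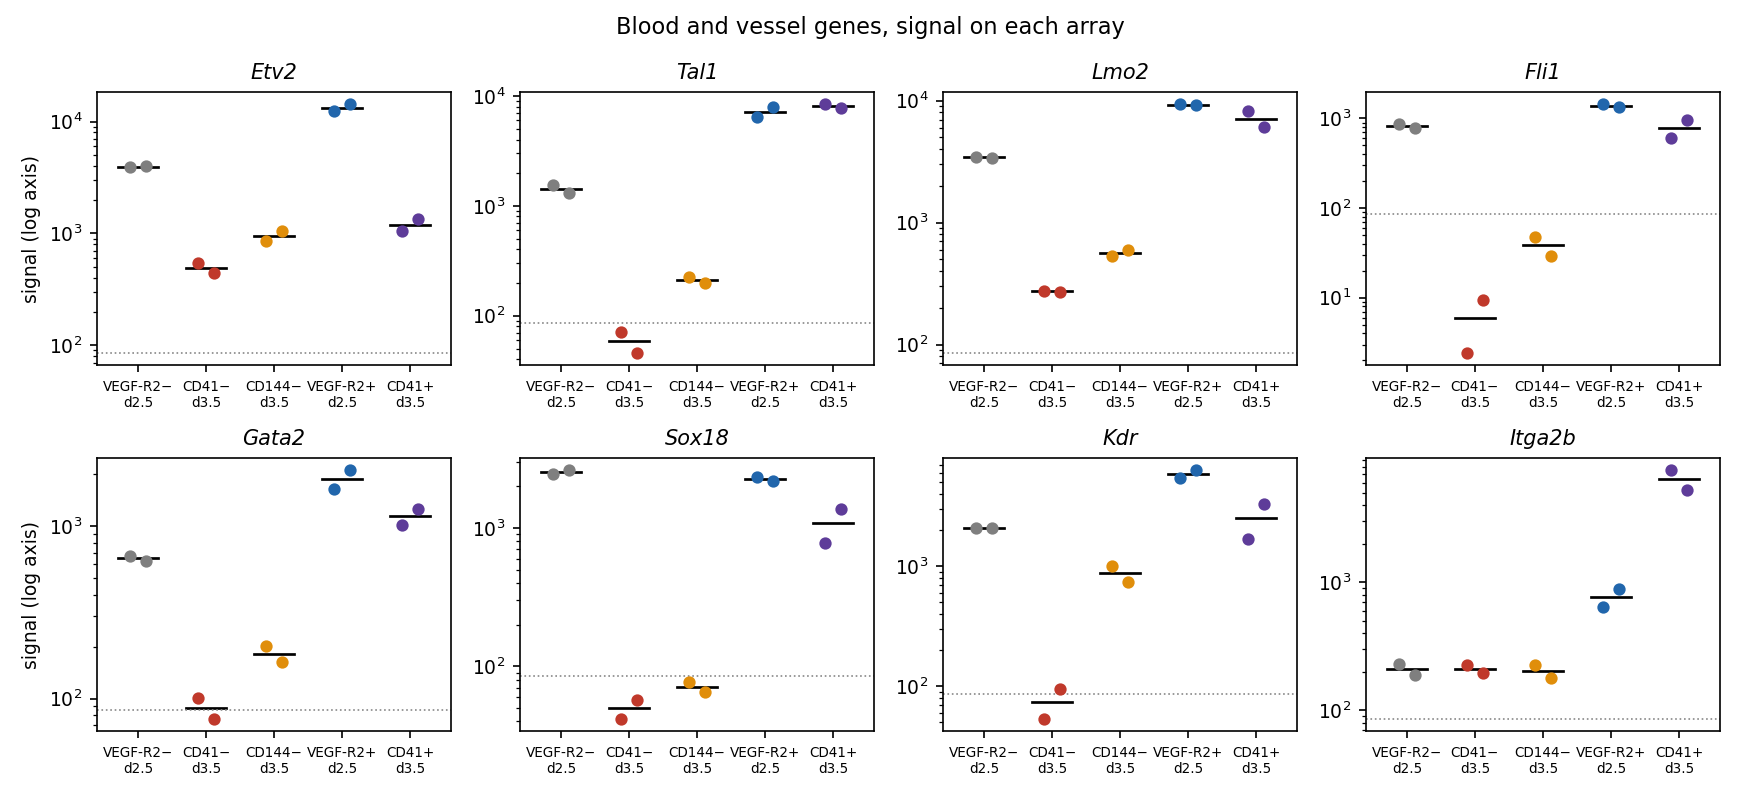
Signal on each array (points, log axis) and mean of 2 arrays (bars) for 8 blood and vessel genes in VEGF-R2 negative, CD41 negative and CD144 negative cells and in VEGF-R2 positive and CD41 positive cells, with the median of all values, 85.8, dotted. Etv2, Tal1, Lmo2, Fli1, Gata2, Sox18 and Kdr were lower in both CD41 negative arrays than in both VEGF-R2 negative arrays, while Itga2b lay near 200 in all 3 negative populations.

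Of 23 genes of vessel lining cells, 15 fell and 0 rose, against 3.1% of all genes lower and 2.49% higher. The median log2 change of the list was -1.44, and that of all genes 0.03. Sox18, which with Sox7 belongs to the SoxF factors of endothelium, went from 2459.7 and 2612 to 41.8 and 57.3 and fell by 5.53 (standard error 0.38, adjusted p = 2.81e-07). The day 2.5 level was not below that of the VEGF-R2 positive cells, which read 2340.1 and 2182. Sox7 fell by 3.55 (standard error 0.29, adjusted p = 1.32e-06), from 457 and 436 to 40.8 and 25.7. Other decreases were Erg, an ETS factor, by 3.21, Icam2, an adhesion molecule, by 3.04, Esam, a junction protein, by 3.02, and Tie1, a vascular receptor kinase, by 2.87. Erg went from 98.9 and 91.1 to 6.61 and 3.33 and Tie1 from 73.6 and 67.3 to 2.63 and 6.63, so both ended under the 25th percentile. Tek, the receptor of angiopoietins, fell by 1.01 (standard error 0.26, adjusted p = 0.0427), a call lost in 9 of the alternatives, with an adjusted p of 0.469 without CD41 negative replicate 2, 0.48 without VEGF-R2 negative replicate 1 and 0.0731 without VEGF-R2 negative replicate 2. That of Icam2 was 0.11 without CD41 negative replicate 2, 0.0694 without VEGF-R2 negative replicate 1 and 0.0532 without VEGF-R2 negative replicate 2. Ets1, Flt4, Rasip1, Eng, Cldn5, Plvap and Egfl7 fell by between 1.09 and 2.32. Pecam1, an adhesion molecule that pluripotent cells carry too, read 269.9 and 273 at day 2.5 and 216 and 358 at day 3.5 (log2 change 0.03, standard error 0.27, adjusted p = 0.993). The count of decreases was 11 to 13 when 1 array was left out and 9 under the robust prior.

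Myzap, Myct1, Ctla2a and Exoc3l were also among the strongest decreases. Myzap, which encodes a junction-associated protein of heart and endothelium, fell by 4.27 (standard error 0.42, adjusted p = 1.28e-05), from 537 and 553 to 15.8 and 31.2. Myct1, a gene of blood and endothelial progenitors, went from 177 and 160.3 to 1.21 and 10.9 and fell by 3.98 (standard error 0.42, adjusted p = 3.39e-05). Ctla2a, which encodes a cysteine protease inhibitor, fell by 3.59 (standard error 0.27, adjusted p = 6.05e-07), from 495 and 564 to 36.1 and 40.8. Exoc3l, related to a subunit of the exocyst, dropped from 2095 and 2126 to 158 and 172, a log2 change of -3.63 (standard error 0.28, adjusted p = 8.15e-07). These 4 genes kept their call in every alternative.

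A further 3 genes among the 12 largest decreases belong to connective tissue, and the stem cells had been grown on fibroblasts. Mgp, a matrix protein that inhibits calcification, fell by 3.97 (standard error 0.86, adjusted p = 0.0142), from 818 and 746 to 42.3 and 46. Col3a1, a fibrillar collagen, fell by 3.76 (standard error 0.60, adjusted p = 0.00154), from 157 and 177 to 4.72 and 9.15. Mmp13, a collagenase, went from 96.3 and 129.5 to 2.93 and 4.98 and fell by 3.57 (standard error 0.90, adjusted p = 0.036). Mgp read 8.16 and 15 and Mmp13 50.9 and 1.1 in the VEGF-R2 positive cells of day 2.5, so both stood higher in the negative sort of that day. Of 13 fibroblast genes, 3 fell and 0 rose, against 3.1% and 2.49% of all genes. Col1a2, a chain of type I collagen, fell by 1.88 (standard error 0.21, adjusted p = 6.56e-05), and Thy1, a surface marker of fibroblasts, read 335 and 266 at day 2.5 and 295 and 291 at day 3.5. The summed signal of the 13 genes was 2978 and 2791 at day 2.5 and 2783 and 2774 at day 3.5, and their part in these decreases was not tested. Mgp had an adjusted p of 0.106 to 0.146 with any 1 array left out. Mmp13 had one of 0.174 to 0.264 with any 1 array left out.

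Not every blood gene fell. Of 13 early blood genes, 4 fell and 2 rose, against 3.1% and 2.49% of all genes. The fourth decrease was Cd34, a surface sialomucin of progenitors, by 2.29 (standard error 0.24, adjusted p = 3.19e-05). Myb, a factor of progenitor proliferation, rose from 916 and 833 to 2232 and 1971, a log2 change of 1.26 (standard error 0.16, adjusted p = 0.000215). Kit, the receptor of stem cell factor, rose by 1.15 (standard error 0.19, adjusted p = 0.00188), but its CD41 negative replicates differed, at 1105 and 1683 and its adjusted p was 0.0559 without CD41 negative replicate 2. With the probe set of largest variance over all arrays in place of the brightest, Kit was not called (log2 change 0.54, adjusted p = 0.736). Runx1, needed for definitive blood, read 27.3 and 32.2 at day 2.5 and 15.9 and 32.1 at day 3.5 by its brightest probe set over all arrays. Another of its 6 probe sets read 78.6 and 41.1 at day 2.5 and 81.9 and 54.7 at day 3.5, and none of the 6 was called.

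Of 12 genes of primitive red cells, 2 rose and 0 fell, against 2.49% and 3.1% of all genes. Hba-x, the embryonic α-like globin ζ, read 23 and 11.2 at day 2.5 and 60.8 and 43.6 at day 3.5 (log2 change 1.37, standard error 0.29, adjusted p = 0.0112), and 40893 and 32212 in CD41 positive cells. Hbb-bh1, an embryonic β-like globin, rose by 0.93 (standard error 0.23, adjusted p = 0.0302), from 147 and 108 to 292 and 207, against 55982 and 49236 in CD41 positive cells. Its other probe sets gave log2 changes of 2.30 (adjusted p = 0.000399) and 0.61 (adjusted p = 0.060). Hbb-y, a further embryonic globin, went the other way without a call. It read 14.4 and 26.7 at day 2.5 and 3.0 and 16.2 at day 3.5 (log2 change -0.87, standard error 0.41, adjusted p = 0.374). Gata1, the main red cell factor, read 129 and 87.1 at day 2.5 and 92.4 and 62.9 at day 3.5 and was not called. Klf1, a red cell zinc finger factor, was not called either, at 46.6 and 4.7 at day 2.5 and 57.4 and 13.5 at day 3.5. For Hba-x the adjusted p was 0.165 without CD41 negative replicate 1 and 0.228 without VEGF-R2 negative replicate 2, and for Hbb-bh1 it was 0.387 without CD41 negative replicate 1, 0.0678 without VEGF-R2 negative replicate 1 and 0.377 without VEGF-R2 negative replicate 2. Neither Hba-x nor Hbb-bh1 was called when only the 4 compared arrays were fitted. The part of red cells left in the negative sort was not tested.

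Several genes of the naive pluripotent state, that of the inner cell mass and of stem cells held in LIF, were higher at day 3.5. Of 16 measured, 6 rose and 0 fell, against 2.49% of all genes higher and 3.1% lower, with a median log2 change of 1.09. Prdm14, a repressor that keeps stem cells naive, rose by 2.79 (standard error 0.32, adjusted p = 6.56e-05), from 48.9 and 67.4 to 414 and 452. Tfcp2l1, a naive state factor, read 173 and 188 at day 2.5 and 744 and 789 at day 3.5 (log2 change 2.05, standard error 0.46, adjusted p = 0.0175). Esrrb, an orphan nuclear receptor of the same network, rose by 1.38 (standard error 0.21, adjusted p = 0.00111), from 635 and 564 to 1527 and 1601. Fbxo15, Dppa3 and Jam2 rose by 1.38, 1.38 and 1.07. Zfp42, a classic marker of the state, read 4041 and 3885 at day 2.5 and 6356 and 7452 at day 3.5, with a log2 change of 0.80 that was not called (standard error 0.23, adjusted p = 0.0757). Klf4, a factor downstream of LIF, read 721 and 633 at day 2.5 and 1519 and 1409 at day 3.5 (log2 change 1.11, standard error 0.33, adjusted p = 0.0832), not called either. The number called was 3 with any 1 array left out, 3 with arrays centred on their median and 11 with the 8 negative arrays alone. Dppa3, Jam2 and Tfcp2l1 were lost in the first 2 of these settings, with adjusted p values of 0.0982 to 0.148 with any 1 array left out for Dppa3 and 0.128 to 0.158 with any 1 array left out for Tfcp2l1. For Jam2 they were 0.164 to 0.306 with any 1 array left out, and its most variable probe set was not called (log2 change 1.57, adjusted p = 0.364).

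The core factors moved apart. Nanog, the homeodomain factor, rose from 2671 and 2755 to 11949 and 12573, a log2 change of 2.17 (standard error 0.24, adjusted p = 5.29e-05), a call that held in every alternative. Pou5f1, which encodes Oct4, read 8912 and 8896 at day 2.5 and 5403 and 6014 at day 3.5 (log2 change -0.64, standard error 0.44, adjusted p = 0.639). Sox2, its partner, read 6226 and 6487 at day 2.5 and 10563 and 11005 at day 3.5 (log2 change 0.76, standard error 0.30, adjusted p = 0.241). Neither passed the test in the main fit. Both were called when only the 4 compared arrays were fitted, and Sox2 also with the 8 negative arrays alone. Dppa2, a chromatin protein of pluripotent cells, fell by 1.47 (standard error 0.23, adjusted p = 0.00109), from 5637 and 5681 to 1971 and 2107. Utf1, a chromatin-bound factor of stem cells, fell by 1.09 (standard error 0.26, adjusted p = 0.0275), and its adjusted p was 0.164 to 0.199 with any 1 array left out. In all, 1 of 13 core genes rose and 2 fell, against 2.49% and 3.1% of all genes. Both decreases were lost when genes were read by the probe set of largest variance, at log2 change -0.97, adjusted p = 0.199 for Dppa2 and log2 change -1.27, adjusted p = 0.185 for Utf1.

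**Figure D3:**
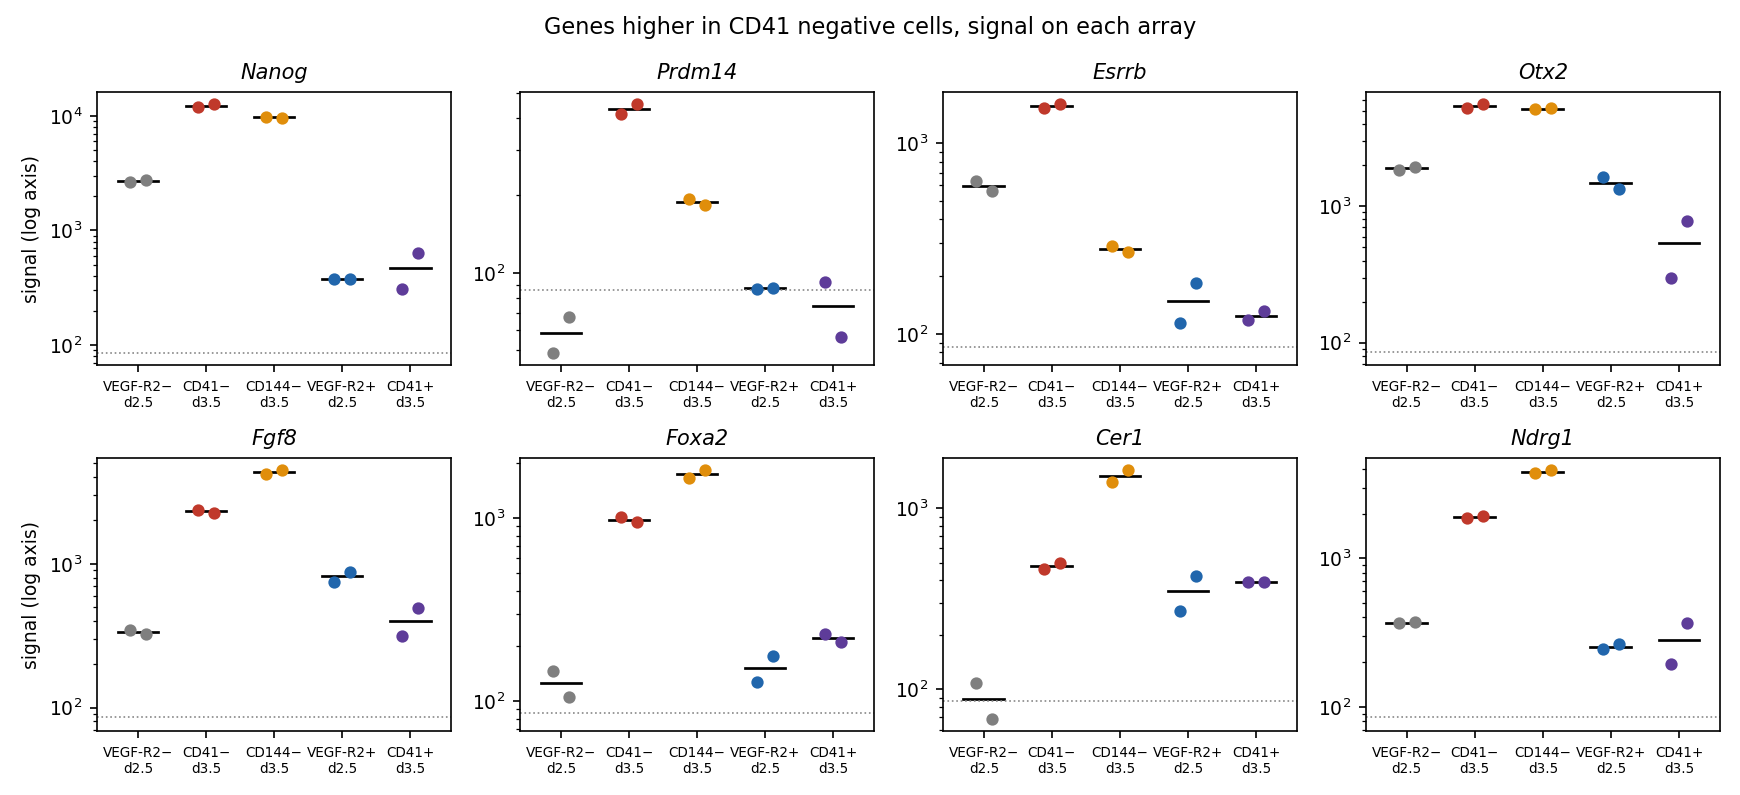
Signal on each array (points, log axis) and mean of 2 arrays (bars) for 8 genes called higher in CD41 negative cells, in the same 5 populations, with the median of all values, 85.8, dotted. Both CD41 negative arrays lie above both VEGF-R2 negative arrays in every panel, and Prdm14 and Esrrb were higher there than in the other 4 populations.

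Genes of the epiblast, the tissue that follows the inner cell mass, were split. Otx2, a homeodomain factor of epiblast and anterior tissue, rose from 1857 and 1930.2 to 5212 and 5575, a log2 change of 1.51 (standard error 0.28, adjusted p = 0.00559). Fgf5, the standard epiblast marker, read 692 and 599 at day 2.5 and 1607 and 1858 at day 3.5 (log2 change 1.42, standard error 0.47, adjusted p = 0.13) and was not called. Pou3f1, which encodes the factor Oct6, fell by 1.39 (standard error 0.25, adjusted p = 0.00413), from 4246 and 4257 to 1597 and 1636. Otx2 had an adjusted p of 0.0641 without CD41 negative replicate 2, 0.0714 without VEGF-R2 negative replicate 1 and 0.0593 without VEGF-R2 negative replicate 2. Pou3f1 had one of 0.0521 without CD41 negative replicate 1, 0.0604 without VEGF-R2 negative replicate 1 and 0.0604 without VEGF-R2 negative replicate 2. Among 8 DNA methylation genes 2 fell, where 3.1% of all genes were lower. They were the methyltransferase Dnmt3a, by 1.55 (standard error 0.20, adjusted p = 0.000232), from 3962 and 3640.0 to 1255 and 1339, and its cofactor Dnmt3l, by 1.32 (standard error 0.24, adjusted p = 0.00399). Dnmt3b, the second de novo enzyme, stayed bright at 14744 and 15287 at day 2.5 and 16829 and 17995 at day 3.5 (log2 change 0.21, standard error 0.20, adjusted p = 0.798). For Dnmt3l the adjusted p was 0.0601 without CD41 negative replicate 1, 0.0646 without VEGF-R2 negative replicate 1 and 0.0717 without VEGF-R2 negative replicate 2. For Dnmt3a, 3 of 5 probe sets were called lower, and the other two had log2 changes of -0.31 and 0.14.

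Among 15 primitive streak regulators 1 rose and 0 fell, against 2.49% and 3.1% of all genes. Sp5, a zinc finger target of Wnt signals, rose by 1.06 (standard error 0.22, adjusted p = 0.0119), from 415 and 456 to 935 and 894, with an adjusted p of 0.0883 to 0.151 with any 1 array left out. Mixl1, a homeodomain factor of the streak, read 1526 and 1477 at day 2.5 and 1616 and 1560.0 at day 3.5 (log2 change 0.08, standard error 0.21, adjusted p = 0.965). Eomes, which directs early endoderm and heart mesoderm, read 1837 and 1566 at day 2.5 and 3105 and 3092 at day 3.5. Its brightest probe set was not called (standard error 0.27, adjusted p = 0.101), while its other probe set was. Mesp1, the factor of first cardiac mesoderm, read 485 and 321 at day 2.5 and 239.6 and 242 at day 3.5 (log2 change -0.70, standard error 0.26, adjusted p = 0.207).

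Later mesoderm regulators fell in 5 of 17 cases, Etv2 included, and rose in 0, against 3.1% and 2.49% of all genes. Hand2, a helix-loop-helix factor of heart and limb, read 63.4 and 37.6 at day 2.5 and 3.68 and 3.94 at day 3.5, a fall of 2.48 (standard error 0.37, adjusted p = 0.000835). Isl1, a factor of the second heart field, fell by 1.81 (standard error 0.46, adjusted p = 0.0383). Pdgfra, the receptor that marks paraxial and heart mesoderm, fell by 1.05 (standard error 0.23, adjusted p = 0.016), from 405 and 389 to 173 and 207. Gata6, a factor of heart and endoderm, fell by 0.84 (standard error 0.18, adjusted p = 0.016). Of these only Etv2 and Hand2 kept their call with any 1 array left out. The adjusted p of Pdgfra was 0.0641 to 0.196 with any 1 array left out, that of Gata6 0.0854 to 0.224 with any 1 array left out, and 0.804 by its most variable probe set, and that of Isl1 0.463 without CD41 negative replicate 2, 0.197 without VEGF-R2 negative replicate 1 and 0.277 without VEGF-R2 negative replicate 2. Among heart muscle genes, Myl7, the atrial light chain, fell by 2.63 (standard error 0.18, adjusted p = 2.81e-07), from 144 and 111 to 13 and 18.2, and Actc1, cardiac actin, rose by 1.37 (standard error 0.19, adjusted p = 0.000328), from 165 and 159.6 to 434 and 426. The other 18 of 20 did not pass, and 11 of 20 had means under the median of all values in both populations.

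Genes of endoderm and of the anterior signalling center gave some of the strongest increases. Foxa2, the forkhead factor of endoderm and midline, rose from 146 and 105 to 1005 and 952, a log2 change of 2.92 (standard error 0.23, adjusted p = 8.15e-07). Cer1, a secreted inhibitor of Nodal, BMP and Wnt made by anterior endoderm, rose by 2.39 (standard error 0.25, adjusted p = 3.06e-05), from 108 and 68.9 to 464 and 498. Both held in every alternative. Trh, a peptide hormone gene, rose by 0.89 (standard error 0.22, adjusted p = 0.0294), with an adjusted p of 0.158 to 0.257 with any 1 array left out. Sox17, which specifies definitive endoderm, read 340.4 and 328 at day 2.5 and 471 and 482 at day 3.5 (log2 change 0.50, standard error 0.28, adjusted p = 0.501). Hhex, a homeodomain factor of anterior endoderm that blood and vessel progenitors also use, fell by 1.80 (standard error 0.16, adjusted p = 4.54e-06), from 1486 and 1465 to 425 and 415. Definitive endoderm genes thus rose in 3 and fell in 2 of 10 cases, against 2.49% and 3.1% of all genes. Afp and Ttr, which mark yolk sac endoderm, were at most 25.7 in all 4 arrays by the probe sets used here and at most 40.5 by any of the 5 probe sets of Afp and the 4 of Ttr.

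Of the secreted signals, the FGF ligands moved in opposite directions. Fgf8, made by streak and epiblast, rose from 345 and 324 to 2379 and 2247, a log2 change of 2.77 (standard error 0.19, adjusted p = 2.32e-07). Fgf17, of the same subfamily, rose by 1.38 (standard error 0.33, adjusted p = 0.0256). Fgf3 fell by 2.73 (standard error 0.21, adjusted p = 6.54e-07), from 263 and 256 to 39.5 and 28.9. Etv4, a factor turned on by FGF signals, fell by 1.65 (standard error 0.40, adjusted p = 0.0267), while none of 4 receptors was called. Fgf17 had an adjusted p of 0.169 to 0.231 with any 1 array left out and was not called by its most variable probe set (log2 change 1.29, adjusted p = 0.468). Etv4 had one of 0.175 to 0.256 with any 1 array left out. The FGF list as a whole counted 2 increases and 2 decreases among 17 genes, against 2.49% and 3.1% of all genes.

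In the Nodal pathway, 3 of 5 inhibitors or feedback targets rose: Cer1, Fst and Lefty2. Fst, which encodes follistatin, a protein that binds activins, rose by 1.90 (standard error 0.20, adjusted p = 3.24e-05), from 986 and 977 to 3430.0 and 3948. Lefty2, a feedback inhibitor, rose by 0.89 (standard error 0.18, adjusted p = 0.0102), with an adjusted p of 0.0553 to 0.145 with any 1 array left out. Nodal itself read 2599 and 2951 at day 2.5 and 4149 and 4098 at day 3.5 (log2 change 0.57, standard error 0.21, adjusted p = 0.201) and was not called. Tdgf1, the coreceptor Cripto, read 10790.0 and 11368 at day 2.5 and 15438 and 15591 at day 3.5 and was not called either. Foxh1, the DNA-binding partner of Smad2, fell by 0.78 (standard error 0.16, adjusted p = 0.0112), with an adjusted p of 0.0656 to 0.161 with any 1 array left out. By its most variable probe set it was not called (log2 change -0.60, adjusted p = 0.351).

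Most BMP targets on the list fell. Of 6 targets 4 were called lower, and of 4 inhibitors 1, where 3.1% of all genes were lower, while 4 ligands and 3 receptors gave no call. Id1, a dominant negative helix-loop-helix protein, fell by 1.51 (standard error 0.18, adjusted p = 0.00013), from 2899 and 3022 to 1072 and 1001. Its relative Id2 fell by 1.65 (standard error 0.29, adjusted p = 0.00371). Msx2, a homeodomain target, read 241 and 275 at day 2.5 and 78 and 92.8 at day 3.5, a fall of 1.53 (standard error 0.23, adjusted p = 0.00105). Smad6, an inhibitory Smad, fell by 1.26 (standard error 0.23, adjusted p = 0.00371), and Bambi, a decoy receptor, by 1.19 (standard error 0.18, adjusted p = 0.000723). Bmp4, the ligand, read 669 and 724 at day 2.5 and 458 and 498 at day 3.5 (log2 change -0.54, standard error 0.17, adjusted p = 0.122). The list counted 5 decreases and 0 increases among 17, 3 to 5 decreases with 1 array left out and 3 under the robust prior. For Id2 the adjusted p was 0.051 without CD41 negative replicate 1 and 0.0574 without VEGF-R2 negative replicate 2, and for Smad6 it was 0.0511 without CD41 negative replicate 1 and 0.0574 without VEGF-R2 negative replicate 2.

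Among 20 Wnt pathway genes 2 rose and 0 fell, against 2.49% and 3.1% of all genes. Wnt8a, a ligand of posterior epiblast, rose by 2.02 (standard error 0.32, adjusted p = 0.00144), from 211 and 216 to 819 and 952. Rspo3, a secreted enhancer of Wnt signals, rose by 1.28 (standard error 0.21, adjusted p = 0.00218), from 321 and 291 to 734 and 769, but not by its most variable probe set (log2 change 1.92, adjusted p = 0.297). Axin2, the usual readout, was 774 and 736 at day 2.5 and 1003 and 938 at day 3.5 and was not called (standard error 0.22, adjusted p = 0.575). In the retinoic acid list only Cyp26a1, the enzyme that degrades retinoic acid, changed, a fall of 1.73 (standard error 0.24, adjusted p = 0.000433) from 2095 and 2084 to 633 and 620.2. No gene of 13 in the Notch list passed the test.

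Of 29 neuroectoderm genes 3 fell and 0 rose, where 3.1% of all genes were lower. Gbx2, a homeodomain factor of early neural plate that stem cells also express, fell by 2.9 (standard error 0.50, adjusted p = 0.00271), from 822 and 897 to 96.7 and 124. Neurod1 fell by 1.61 and Sox3 by 0.90. The adjusted p of Gbx2 was 0.0523 without VEGF-R2 negative replicate 1 and 0.0647 without VEGF-R2 negative replicate 2, that of Neurod1 0.21 to 0.351 with any 1 array left out and that of Sox3 0.152 to 0.261 with any 1 array left out. By their most variable probe sets neither Sox3 (log2 change -1.90, adjusted p = 0.35) nor fibronectin, Fn1 (log2 change -0.30, adjusted p = 0.616), was called. Sox1, the first neural marker, lay between 51.5 and 64.5 in all 4 arrays by the brighter of its probe sets. Cdh1, the epithelial cadherin, was bright, at 11322 and 11579 at day 2.5 and 10908 and 11393 at day 3.5 (log2 change -0.04, standard error 0.28, adjusted p = 0.992), and Krt18, a simple epithelial keratin, rose by 1.16 (standard error 0.20, adjusted p = 0.00252). The matrix gene Fn1 fell by 0.61 (standard error 0.12, adjusted p = 0.00608) and vimentin, Vim, by 0.66 (standard error 0.15, adjusted p = 0.0202). The adjusted p of Krt18 was 0.0514 without VEGF-R2 negative replicate 1, that of Fn1 0.118 without CD41 negative replicate 2, 0.097 without VEGF-R2 negative replicate 1 and 0.0943 without VEGF-R2 negative replicate 2 and that of Vim 0.124 to 0.198 with any 1 array left out. The basement membrane collagens Col4a1 and Col4a2 fell by 1.92 and 2.04, the latter from 904 and 891 to 213 and 215 (standard error 0.24, adjusted p = 8.29e-05). Of 33 Hox genes 1 was called, near the 3.1% of all genes that were lower. It was Hoxb2, a fall of 0.96 with an adjusted p of 0.0712 to 0.281 with any 1 array left out, and 30 were under the median of all values in both populations.

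Imprinted genes, expressed from 1 parental copy and often linked to growth, fell in 4 of 14 cases and rose in 0. Of all genes 3.1% were lower and 2.49% higher. Igf2, a growth factor, fell by 1.75 (standard error 0.21, adjusted p = 0.000126), from 1386 and 1325 to 368 and 431. Mest fell by 1.60 (standard error 0.27, adjusted p = 0.00263). Cdkn1c, a cyclin-dependent kinase inhibitor, fell by 1.27 (standard error 0.16, adjusted p = 0.000221), while the related inhibitor Cdkn1b rose by 1.43 (standard error 0.20, adjusted p = 0.000385), from 1282 and 1305 to 3148 and 3887. The most variable probe set of Cdkn1b was not called (log2 change 1.81, adjusted p = 0.218). Ccne1, the cyclin of S phase entry, fell by 1.15 (standard error 0.18, adjusted p = 0.0011). Those 3 were the only calls among 23 cell cycle genes, and Pcna, a replication clamp, read 16952 and 17160.0 at day 2.5 and 19931 and 18260.0 at day 3.5.

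Several genes of low oxygen response and of sugar breakdown rose. Of 16 hypoxia response genes 8 rose and 0 fell, against 2.49% of all genes higher, with a median log2 change of 0.81, and of 11 glycolysis genes 5 rose and 0 fell, with a median of 0.45. Ndrg1, a gene strongly induced when oxygen is low, rose from 364 and 372 to 1880.2 and 1943, a log2 change of 2.36 (standard error 0.22, adjusted p = 1e-05), and 4 of its 5 probe sets were called. Bnip3, a mitochondrial protein of autophagy, rose by 1.49 (standard error 0.16, adjusted p = 5.09e-05), from 2811 and 2792 to 7959 and 7769.5. P4ha1, a collagen prolyl hydroxylase, rose by 1.43 (standard error 0.18, adjusted p = 0.000171), from 492 and 509.6 to 1377 and 1341. Ankrd37 rose by 1.18 (standard error 0.21, adjusted p = 0.00314), from 180.4 and 188 to 414 and 435. Mxi1, a Max-binding repressor, and Vegfa, the ligand of VEGF-R2, rose by 0.91 and 0.81. Pfkp, an isoform of phosphofructokinase, rose by 1.35 (standard error 0.15, adjusted p = 7.24e-05), from 1375 and 1409 to 3645 and 3453. The glucose carriers Slc2a1 and Slc2a3 rose by 0.96 and 0.95, and Aldoa and Pgk1, enzymes of the pathway, by 0.59 and 0.53.

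These counts depended on the settings. With 1 array left out the hypoxia list kept 4 to 6 increases and the glycolysis list 2. With each gene read by its most variable probe set, both lists had 3 increases. Under the robust prior they had 3 and 1. Ankrd37 had an adjusted p of 0.0514 without VEGF-R2 negative replicate 1. Mxi1, Vegfa, Slc2a1, Aldoa and Pgk1 were lost with any 1 array left out, with adjusted p values up to 0.234, while Bnip3 and Pfkp held in every alternative. Ndrg1 and P4ha1 held in all but 1, and by their most variable probe sets they were not called (log2 change 2.42, adjusted p = 0.202 for Ndrg1 and log2 change 1.34, adjusted p = 0.0954 for P4ha1). That choice also lost Mxi1, Vegfa, Slc2a3 and Pgk1. By the rule that the 90% interval of the fold lies beyond 2, the hypoxia list had 3 increases and the glycolysis list 1. Centring each array on its median left 5 increases in the hypoxia list and 2 in the glycolysis list.

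The promoters of most genes that rose in these lists hold the same short motif. RefSeq windows of 300 bases (250 before to 50 after the start of the gene, build GRCm38.p6) were found for 11 of the 13 genes, 16 windows in all. ACGTG, the core of the site bound by hypoxia inducible factors, was searched on both strands. It lay in 12 of the 16 windows, covering 10 of the 11 genes, and in 19.6% of all 32851 windows. The variant GCGTG lay in 7 of the 16, against 32.4% of all. In 24 windows of 17 blood, vessel and strongly decreased genes ACGTG lay in 2. The hypoxia list was made of targets of hypoxia inducible factor, so its making favours such matches. Uncalled members of these lists were not counted separately, so the counts do not link the motif to the increase. The 3 windows below belong to Bnip3 (chr7:138909457-138909756, minus strand), Ankrd37 (chr8:45999801-46000100, minus strand) and P4ha1 (chr10:59323046-59323345, plus strand), shown because these genes rose most among those with the motif. Capitals mark ACGTG or its reverse complement CACGT.
Bnip3: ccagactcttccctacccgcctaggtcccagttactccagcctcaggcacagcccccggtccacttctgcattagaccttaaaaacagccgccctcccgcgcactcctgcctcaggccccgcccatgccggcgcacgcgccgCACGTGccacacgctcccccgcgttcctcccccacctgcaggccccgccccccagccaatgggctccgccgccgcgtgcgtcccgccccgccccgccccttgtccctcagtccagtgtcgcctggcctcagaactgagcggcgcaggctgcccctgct
Ankrd37: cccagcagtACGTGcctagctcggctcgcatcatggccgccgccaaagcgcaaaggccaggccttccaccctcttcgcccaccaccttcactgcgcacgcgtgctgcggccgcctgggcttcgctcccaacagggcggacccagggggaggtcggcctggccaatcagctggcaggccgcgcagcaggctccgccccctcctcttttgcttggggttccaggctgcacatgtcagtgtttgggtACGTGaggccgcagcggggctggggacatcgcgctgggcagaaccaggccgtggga
P4ha1: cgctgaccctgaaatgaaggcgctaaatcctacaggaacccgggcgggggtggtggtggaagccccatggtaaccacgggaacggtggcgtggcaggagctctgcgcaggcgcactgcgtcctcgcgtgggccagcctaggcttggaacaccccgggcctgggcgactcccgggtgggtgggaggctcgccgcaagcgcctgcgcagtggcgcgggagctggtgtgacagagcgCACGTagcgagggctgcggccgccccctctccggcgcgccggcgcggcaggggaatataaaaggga
In Bnip3 both strands match within the palindrome CACGTG. Ankrd37 holds 2 separate matches, and P4ha1 holds 1 on the opposite strand. A match is a description of the letters, not evidence of binding.

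The windows of the decreased blood and vessel genes and of the other most decreased genes were read together in the same way. Col3a1 and Mmp13, genes of connective tissue, are among them. Forms of the core that ETS factors bind gave no common direction. AGGAAG lay in 12 of 24 windows against 35.4% of all, CCGGAA in 1 against 14.9%, GGAA in 23 against 96% and ACCGGAAG in 0 against 2.3%. AGATAA, a core bound by GATA factors, lay in 5 of 24 against 11.2%. Of the boxes read by helix-loop-helix factors, CAGCTG lay in 2 against 16.3% and CACCTG in 3 against 20.2%. Tal1 is one of the 5 with AGATAA. The window of its upstream start (chr4:115056176-115056475, plus strand) is shown because Tal1 fell together with Gata2, and capitals mark the reverse complement TTATCT. Whether Gata2 acts on Tal1 was not tested, and a match is not evidence of binding.
Tal1: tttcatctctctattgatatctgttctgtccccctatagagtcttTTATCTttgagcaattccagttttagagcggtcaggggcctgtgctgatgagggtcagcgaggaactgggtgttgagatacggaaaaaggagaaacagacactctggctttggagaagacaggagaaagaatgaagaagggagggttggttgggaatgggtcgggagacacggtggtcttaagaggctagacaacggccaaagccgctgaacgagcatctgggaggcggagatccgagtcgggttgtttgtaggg
The window of the second Tal1 start holds no such match.

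A further group of increases came from genes induced by interferons, a list put together after its members were seen among the largest increases, so that its counts only describe. Of 29 such genes 12 were called higher and 0 lower, against 2.49% and 3.1% of all genes, with a median log2 change of 0.94. Irgm2, an immunity-related GTPase, rose from 124 and 167 to 831 and 895, a log2 change of 2.53 (standard error 0.19, adjusted p = 6.05e-07). Rtp4 rose by 2.69 (standard error 0.43, adjusted p = 0.0014), from 22.2 and 57.3 to 269 and 266. Gbp2b and Gbp7, guanylate-binding proteins, rose by 1.80 (standard error 0.23, adjusted p = 0.000178) and 1.61 (standard error 0.19, adjusted p = 0.000113), the first from 597 and 535 to 2002 and 1959. Cxcl11, a chemokine, read 4.53 and 55 at day 2.5 and 178 and 254 at day 3.5 (log2 change 3.11, standard error 0.75, adjusted p = 0.0271), with an adjusted p of 0.131 without CD41 negative replicate 1, 0.228 without CD41 negative replicate 2 and 0.438 without VEGF-R2 negative replicate 1. With 1 array left out the list had 6 or 7 increases. Gbp7 was not called by its most variable probe set (log2 change 1.18, adjusted p = 0.203). Ifit3, Cxcl10, Ifit1 and Oasl2, standard members of the response, had log2 changes of 1.37, 1.37, 0.94 and 0.79 and were not called.

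Other large increases were in genes with no shared role. Gad1, the enzyme that makes the transmitter GABA, rose from 34.1 and 31 to 364 and 347, a log2 change of 3.23 (standard error 0.41, adjusted p = 0.000184), the largest increase by the rule for named genes. Smc1b, a meiotic cohesin subunit, read 9.45 and 53.2 at day 2.5 and 249 and 207 at day 3.5 (log2 change 2.94, standard error 0.69, adjusted p = 0.024). Zmynd10, a ciliary assembly protein, rose by 2.94 (standard error 0.68, adjusted p = 0.021), from 9.52 and 19.5 to 159 and 136. A4galt, a glycolipid synthase, Ppp1r3c, a glycogen regulator, and Lrrc31 rose by 2.77, 2.55 and 2.58. The day 2.5 replicates of Smc1b, A4galt and Ppp1r3c differed several-fold at these low signals. The adjusted p of Smc1b was 0.215 without CD41 negative replicate 1, 0.145 without CD41 negative replicate 2 and 0.403 without VEGF-R2 negative replicate 1, and that of Zmynd10 0.0928 to 0.239 with any 1 array left out. A4galt and Lrrc31 were likewise lost without 3 or all of the 4 arrays, and Ppp1r3c had an adjusted p of 0.0584 without VEGF-R2 negative replicate 2. Tfap2c, a factor of trophoblast and germ cells, rose by 1.92 (standard error 0.25, adjusted p = 0.000274), from 389.5 and 347 to 1317 and 1497, with all 3 of its probe sets called.

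Stress genes were mixed. The heat shock gene Hspa1b fell by 1.23 (standard error 0.23, adjusted p = 0.00443), and Chac1, a target of the unfolded protein response, by 1.0 (standard error 0.22, adjusted p = 0.0155). Ddit3, which encodes the stress factor CHOP, rose by 1.11 (standard error 0.26, adjusted p = 0.0249). The adjusted p of Hspa1b was 0.0506 without CD41 negative replicate 2 and 0.0898 without VEGF-R2 negative replicate 2, that of Chac1 0.0969 to 0.204 with any 1 array left out and that of Ddit3 0.0755 to 0.288 with any 1 array left out. Of 9 p53 targets 2 rose, where 2.49% of all genes were higher. They were Pmaip1, which promotes cell death, by 1.43 (standard error 0.21, adjusted p = 0.000735), and Sesn1, by 0.93 (standard error 0.19, adjusted p = 0.00794). For Sesn1 the adjusted p was 0.102 without CD41 negative replicate 1, 0.0616 without CD41 negative replicate 2 and 0.173 without VEGF-R2 negative replicate 1, and its most variable probe set gave no change that passed (log2 change -0.0006, adjusted p = 1). Fos, turned on within minutes by handling or growth factors, read 823 and 542 at day 2.5 and 783 and 714 at day 3.5 and was not called. Egr1, of the same class, went from 1354 and 1294 to 2316 and 1711, also not called.

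In the remaining lists, counts were read against 3.1% of all genes lower and 2.49% higher. Of 14 yolk sac endoderm genes 1 fell, Plat, a plasminogen activator, by 2.12 (standard error 0.29, adjusted p = 0.000376), while its most variable probe set turned the direction without a call (log2 change 1.17, adjusted p = 0.712). Of 9 mesenchymal genes 3 fell, Fn1, Vim and the cadherin Cdh11, and of 9 basement membrane genes 3 fell, the third being Col18a1. Among 10 germ cell and early embryo genes Dppa3 and Prdm1 rose, the latter by 1.02 with an adjusted p of 0.101 to 0.115 with any 1 array left out, and Tex19.1 fell by 0.87. Of 12 immediate early genes Ier3 alone rose, by 0.87, with an adjusted p of 0.189 to 0.326 with any 1 array left out. Tfap2c was the single call among 11 trophoblast genes, and Krt18 among 11 epithelial genes.

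**Figure D4:**
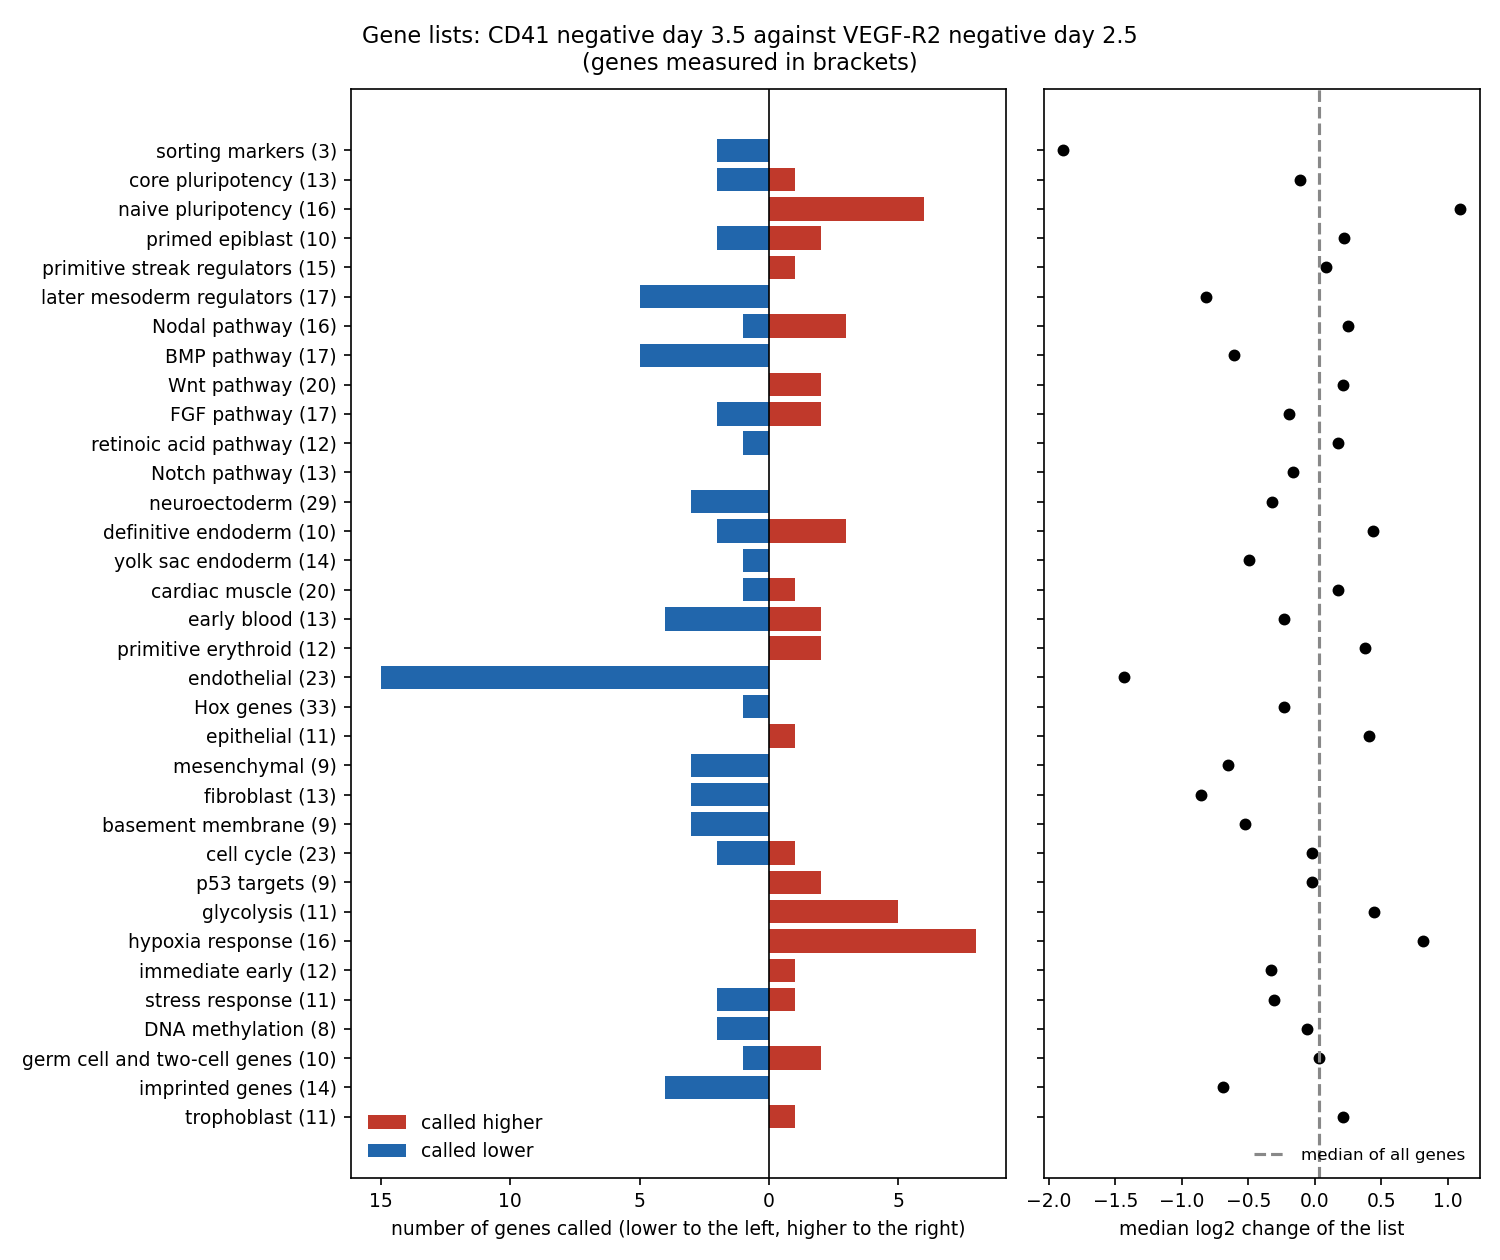
Number of genes called lower (blue, left) and higher (red, right) in each of 34 gene lists, with the number measured in brackets, and in the right panel the median log2 change of each list beside that of all genes (dashed, 0.03). Endothelial genes have the longest bar to the left, 15 of 23, and hypoxia response genes the longest to the right, 8 of 16.

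The series holds a second negative population of day 3.5, sorted as CD144 negative. Both day 3.5 populations were compared with the same VEGF-R2 negative arrays, so their changes are not independent and are given side by side. Compared directly, 788 probe sets, 1.75% of those tested, differed between CD41 negative and CD144 negative cells: 320 were higher (0.711%) and 468 lower (1.04%) in CD41 negative cells. The blood and vessel decreases appeared in both. Of 23 endothelial genes, 15 fell in CD41 negative and 17 in CD144 negative cells, where 4.95% of all genes fell and 6.48% rose. Lmo2 read 535 and 591 in CD144 negative cells, against 276 and 271 in CD41 negative cells, a direct difference of -1.02 (standard error 0.20, adjusted p = 0.00923). Sox18 read 76.5 and 65.5 and did not pass (standard error 0.38, adjusted p = 0.875). Kdr was 1001 and 739.9, so CD41 negative cells were lower by a log2 difference of -3.48 (standard error 0.27, adjusted p = 1.06e-06). The methods describe the CD41 negative cells as lacking VEGF-R2 too, and the CD144 negative cells only as lacking CD144. The part of this in the differences between the 2 populations, here and below, was not tested. Increases of Nanog, Otx2, Bnip3 and Gad1 were likewise seen in both, with direct differences of 0.34, 0.05, 0.06 and 0.03, none of them called.

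Naive pluripotency genes separated the 2 populations. Of 16, 11 were higher and 1 lower in CD41 negative than in CD144 negative cells, against 1.14% and 1.78% of all genes. Against day 2.5, 6 rose in CD41 negative cells, while 1 rose and 7 fell in CD144 negative cells. Of all genes 2.49% rose in the first, while 6.48% rose and 4.95% fell in the second. Zfp42 read 6356 and 7452 in CD41 negative and 1119 and 1151 in CD144 negative cells, a difference of 2.59 (standard error 0.23, adjusted p = 5.18e-06). Esrrb read 1527 and 1601 in the first and 288 and 269 in the second population, a difference of 2.46 (standard error 0.21, adjusted p = 3.71e-06). Sox2 was higher by 1.93 (standard error 0.30, adjusted p = 0.00167), at 10563 and 11005 against 2921 and 2736. The 6 largest positive differences among genes also called against VEGF-R2 negative cells were Smc1b, Lrrc31, Ooep, Dnmt3l, Dppa2 and 1700097N02Rik. Ooep, an oocyte and early embryo protein, read 1714 and 1726 in CD41 negative and 293 and 218 in CD144 negative cells (difference 2.74, standard error 0.19, adjusted p = 3.36e-07). Dnmt3l and Dppa2 were lower in CD41 negative than in VEGF-R2 negative cells. Both lay still lower in CD144 negative cells, by 2.66 (standard error 0.24, adjusted p = 5.18e-06) and 2.56 (standard error 0.23, adjusted p = 4.65e-06).

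Streak and mesoderm genes stood the other way. Of 15 streak regulators 7 were lower in CD41 negative than in CD144 negative cells, and of 17 later mesoderm regulators 9. None was higher. Of all genes 1.78% were lower and 1.14% higher in this comparison. Mixl1 read 4020.4 and 4309.6 in CD144 negative cells, a difference of -1.39 (standard error 0.21, adjusted p = 0.00149), and Mesp1 1658 and 1857, a difference of -2.83 (standard error 0.26, adjusted p = 7.56e-06). Among the genes named by the rule the greatest difference was in Myl7, with 1198 and 1195 in CD144 negative and 13 and 18.2 in CD41 negative cells (-5.81, standard error 0.18, adjusted p = 1.37e-11). Klhl6, a gene of lymphoid and vascular cells, Hand2 and Isl1 differed by -4.25, -3.91 and -3.86. Fgf3 read 474 and 497 in CD144 negative and 39.5 and 28.9 in CD41 negative cells (difference -3.62, standard error 0.21, adjusted p = 4.27e-08). BMP pathway genes fell in 5 of 17 cases in CD41 negative cells, against 3.1% of all genes. They rose in 6 of 17 in CD144 negative cells, against 6.48%. Compared directly, 8 were lower in CD41 negative cells, against 1.78%. Msx2, for one, read 779 and 672 in CD144 negative cells, a difference of -3.0 (standard error 0.23, adjusted p = 1.16e-06). Of the 10 definitive endoderm genes 6 were lower, against 1.78% of all genes. Among them were Sox17 (-1.89, standard error 0.28, adjusted p = 0.001) and Cer1 (-1.64, standard error 0.25, adjusted p = 0.00139).

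**Figure D5:**
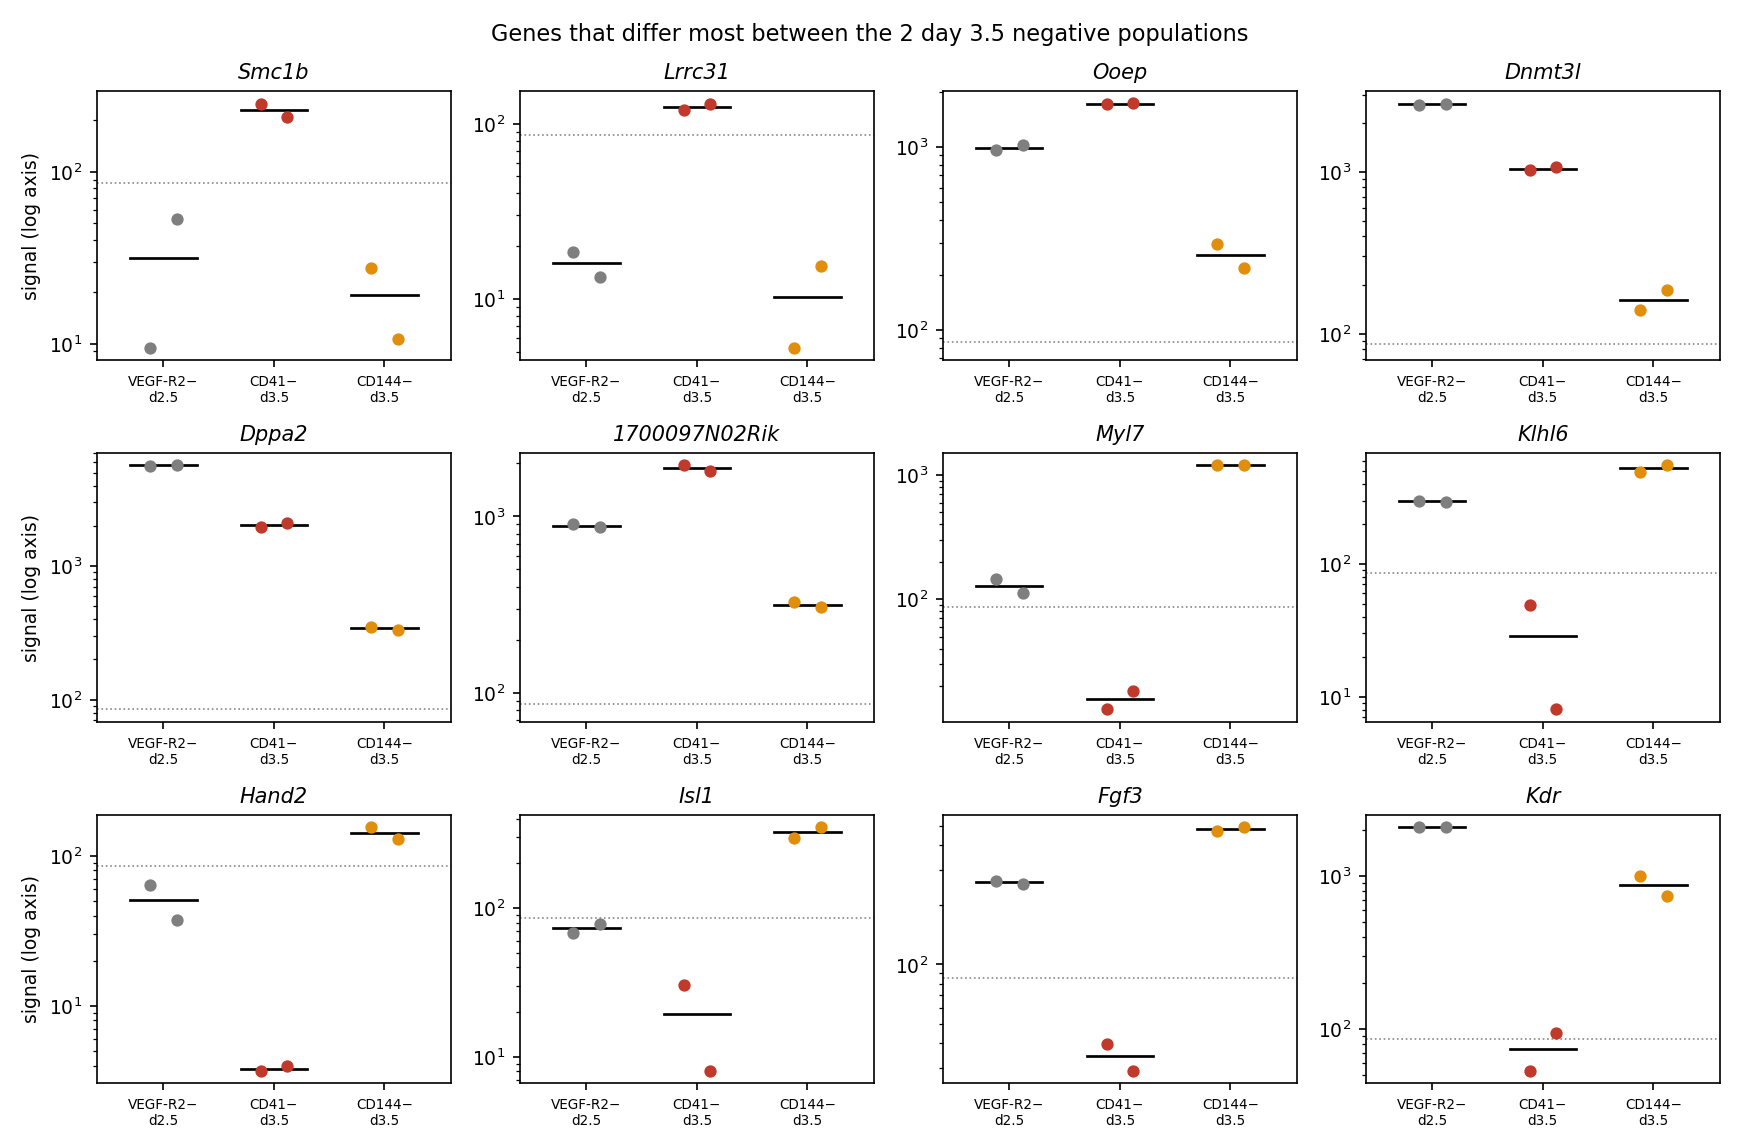
Signal on each array (points, log axis) and mean of 2 arrays (bars) of VEGF-R2 negative, CD41 negative and CD144 negative cells for the 12 genes that the rule for named genes took by their difference between the last 2 populations, with the median of all values, 85.8, dotted. Smc1b, Lrrc31, Ooep and 1700097N02Rik were highest in CD41 negative cells, Dnmt3l and Dppa2 lay between the other populations, and Myl7, Klhl6, Hand2, Isl1, Fgf3 and Kdr were lowest in CD41 negative cells.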

How the data were processed

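RNA of sorted embryoid body cells was measured on Affymetrix Mouse Genome 430 2.0 arrays, 2 for each of 8 populations grouped by sample title. The deposited intensity values are MAS5 signals that the authors computed and scaled to a trimmed mean of 500 per array. The software version is not given in the sources used here, and detection calls were not used. Of 45101 probe sets, 64 controls were left out. After 6.03 was added, log2 values of all 16 arrays were fitted in limma 3.58.1 (R 4.3.3) with 8 group means, a trend of variance with signal and Benjamini-Hochberg adjustment at 0.05, in a procedure tested on simulated data. Platform annotation gave 34945 probe sets 1 symbol, 932 several and 9160 none, and only the first were named. Each of 18193 genes is read by the member probe set whose mean over the arrays is highest.

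Named genes are the defining genes of 34 lists, the 12 largest called changes per direction with a mean above 85.8 and no overlap between arrays, up to 6 called members per list and direction, and the 6 largest called differences from CD144 negative cells per direction. Members and lists were chosen with earlier results of these data known. The interferon list, the remaining endothelial and uncalled interferon genes named, and the motifs and promoters shown were chosen after values were seen. Promoter windows were searched on both strands with overlaps counted. Hypoxia inducible factor cores were ACGTG, with GCGTG as a variant form of that core. ETS factor cores were GGAA, with AGGAAG as one longer form, CCGGAA as another and ACCGGAAG as the longest. The GATA factor core was AGATAA, while helix-loop-helix factors were read by CAGCTG and by the alternative box CACCTG. Sox factors were read by AACAAT together with the extended AACAATG, and Oct factors by TTTGCAT. Alternatives changed the offset, floor, scaling, low-signal filter, arrays fitted, replicate block, prior, call rule (90% interval of the fold beyond 2), probe set per gene or left out 1 array. P-values measure the spread between 2 arrays per group, pooled over all groups. Matplotlib 3.10.9 and Python 3.11.15 drew the figures.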

Additional observations from a re-analysis of the deposited data

Results flagged for a closer look

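The 24 genes with the largest changes in the negative cells were set against the CD41 sorted cells, whose change is that between the VEGF-R2 positive and the CD41 positive population. The difference between the 2 changes was tested as an interaction in the same limma fit, and it passed for 14 of the 24 genes, 9 that fell and 5 that rose in the negative cells. Over all probe sets 4.73% passed, while each of the 24 genes was read by its brightest probe set only, so the shares differ in unit. The 24 genes were chosen by the change that enters the interaction, which favoured passing. Their count and the adjusted p values below are therefore a description.

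Tal1 fell by 4.50 in negative cells and changed by 0.18 in sorted cells, an interaction of 4.68 (adjusted p = 2.01e-08). Lmo2 changed by -0.40 in sorted cells (interaction 3.22, adjusted p = 2.62e-06), and Fli1 by -0.86 (interaction 5.31, adjusted p = 1.61e-06). Sox18 and Kdr changed by -1.12 and -1.31 in sorted cells, with interactions of 4.41 (adjusted p = 9.54e-05) and 3.44 (adjusted p = 2.85e-05). Ctla2a, which rose by 1.40 in sorted cells, had an interaction of 4.99 (adjusted p = 7.63e-07). Myct1, Col3a1 and Myzap had interactions of 4.65, 4.46 and 2.82 (adjusted p = 0.000141, 0.00424 and 0.00846).

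In the other direction, Gad1 rose by 3.23 in negative cells and fell by 2.53 in sorted cells, an interaction of -5.76 (adjusted p = 1.13e-05). Fgf8 had an interaction of -3.81 (adjusted p = 2.22e-07), since it rose by 2.77 in negative cells and fell by 1.04 in sorted cells. Prdm14, Foxa2 and Irgm2 had interactions of -3.04, -2.38 and -1.09 (adjusted p = 0.000476, 0.000242 and 0.0267). Irgm2 rose in both, by 2.53 in negative and 1.45 in sorted cells.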

How the results depend on the processing

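Of 178 genes named by the rule, 120 were called. With the same probe set and adjusted p, 56 of them kept their call in every fit. Another 36 lost it without each of the 4 arrays in turn, 23 without 1 to 3 of them, and 5 only under the robust prior. With a lone array in a group, that array was assumed to vary like the other groups. The median-centred arrays lost 20 calls, the robust prior 59, leaving out 1 array 47 to 53 and each of the other fits at most 7. Reading single genes by the probe set of largest variance, an alternative added after seeing the data, chose another probe set for 30 of the 120. It lost 18 calls and turned the direction of Plat, to 1.17, and of Sesn1, to -0.0006. Of the 120, 50 kept their call in every fit and by that probe set, and 47 also under the rule that a 90% interval of the fold lies beyond 2, which lost 49. Of the 58 named genes not called, 20 were called when only the 4 compared arrays were fitted and 11 with the 8 negative arrays. Pou5f1, Sox2, Fgf5, Klf4 and Nodal were among the 20, so a gene that was not called is not shown to be unchanged.

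Main counts were 707 probe sets higher and 853 lower. Centring each array on its median gave 323 higher. Fitting only the 4 arrays compared gave 3196 higher and 3046 lower, the 8 negative arrays 1715 and 1600, the robust prior without trend 159 and 215, and the 90% interval rule 170 and 271. Leaving out 1 array gave 182 to 225 higher and 232 to 349 lower. The cause of these shifts was not tested. For CD41 negative against CD144 negative cells, 788 as reported, the same settings gave 2381, 1880, 307 and 417, and leaving out 1 array 304 to 322. For the difference from the sorted cells, 2128 as designed, the robust prior gave 973 and leaving out 1 array 1077 to 2956. With the replicate block the counts were 753 higher, 881 lower, 834 and 2177, and Lrrc31 was the single named call lost. Same-numbered replicates showed no shared deviation over all probe sets: the correlation of replicate differences between the 2 populations was 0.02, and between -0.05 and 0.05 over 28 pairs of groups. Noise of weak signals enters these values, so they cannot exclude that same-numbered arrays share an experiment. A small number of arrays limits the precision, and signals under 23.4 are near background, where folds depend on the offset.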
